A study of Mus musculus with 6 samples.

Results

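Expression of 10 genes was followed in 6 mouse RNA-seq libraries: 5 adenylyl cyclases (Adcy3, Adcy4, Adcy6, Adcy7 and Adcy9), 3 G-alpha subunits (Gnas, Gnai2 and Gnaz) and both subunits of a soluble guanylyl cyclase (Gucy1a1 and Gucy1b1). They were taken by gene symbol from a table of 55573 genes, and all 10 were found and passed the filter on low counts that left 16493 genes. The 3 wild-type (WT) and 3 Abcc4-/- samples carry the cell type label megakaryocytes, the large marrow cells that shed platelets, and their titles contain BM and CD41. How the cells were obtained, the age and strain of the mice and the kind of Abcc4 deletion are not given in the sources used here, and the labels name no treatment. Nor do they say that the 3 samples of a genotype are from different mice, and p-values therefore reflect sample-to-sample spread that could be technical.

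Adenylyl cyclases make cAMP from ATP at the inner face of the cell membrane. Receptors switch them on through the stimulatory subunit G-alpha-s, encoded by Gnas, and hold them back through the inhibitory family that includes Gnai2 and Gnaz. Soluble guanylyl cyclase is a heterodimer of an alpha and a beta subunit that makes cGMP when nitric oxide binds its heme. In platelets both nucleotides restrain activation, and the Abcc4 transporter is known to carry them out of the cell.

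In these samples the most abundant members, Gnai2, Gnas and Adcy7, differed little between the genotypes, and 4 members of lower abundance fell in Abcc4-/-: Adcy6, Gnaz, Gucy1a1 and Gucy1b1. They fell between 1.48-fold and 1.78-fold in the edgeR quasi-likelihood test across all genes (Benjamini-Hochberg adjusted p below 0.05). Over all 16493 genes tested, 8.68% were called lower and 8.61% higher, 17.3% in all. Higher genes made up 49.8% of these calls, against 28.4% in limma on log2(TPM + 1). The members therefore had 4 of 10 called lower and 0 called higher, with a median log2 fold change of -0.33 beside 0.00090 over all genes. The members were chosen with results of these data in view, so this share is a description. Leaving out Abcc4-/- replicate 1 left 1 member called, Adcy6, and leaving out Abcc4-/- replicate 2 left 2, Adcy6 and Gucy1a1.

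**Figure D1:**
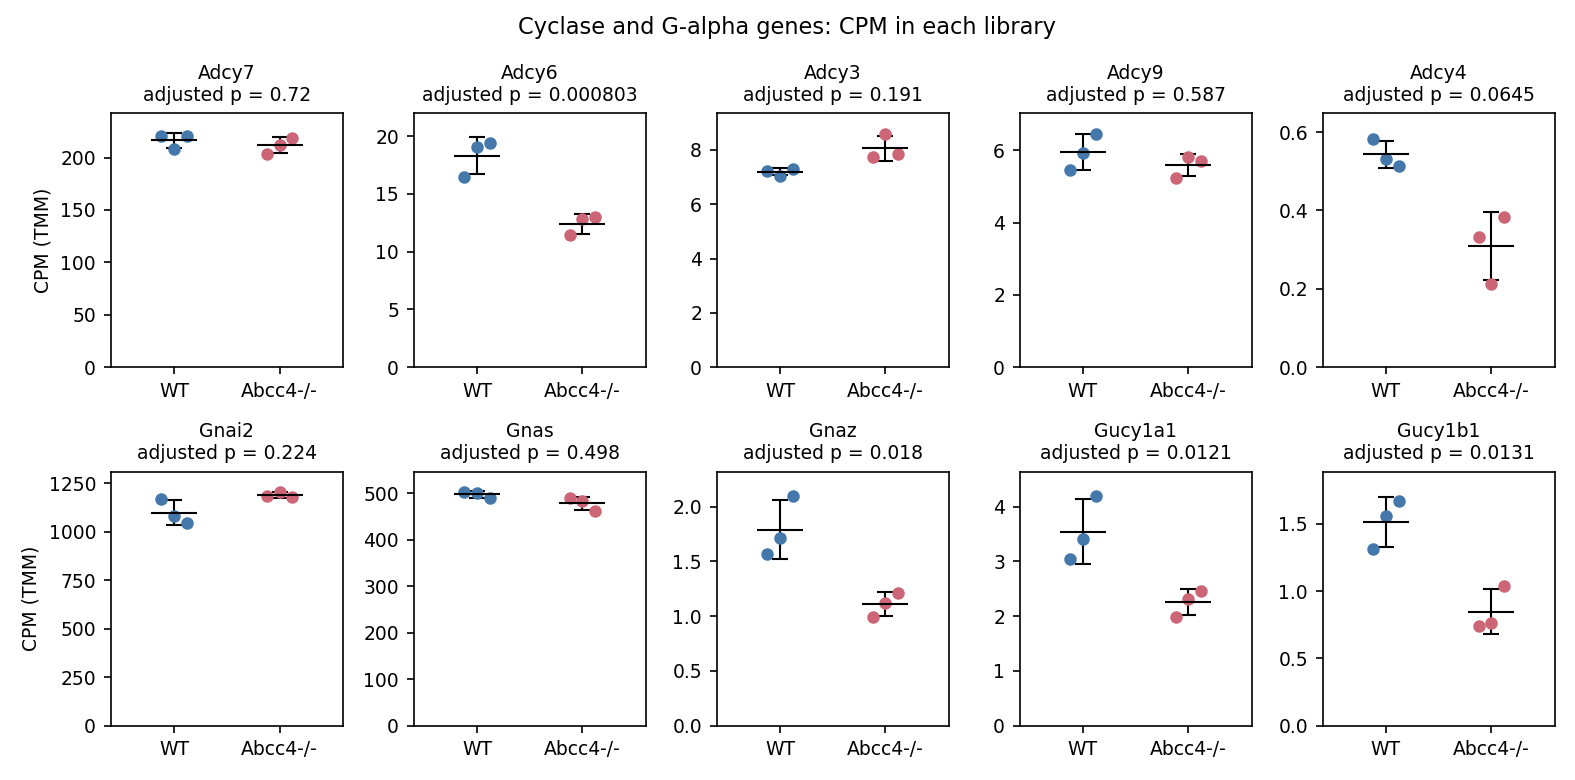
Library-scaled counts (CPM, vertical axis from 0) of each of the 10 genes in the 3 WT (blue) and 3 Abcc4-/- (red) libraries, with group mean and SD as bars and the edgeR adjusted p above each panel. The groups are apart for Adcy6, Gnaz, Gucy1a1, Gucy1b1, Adcy4, Adcy3 and Gnai2, and only the first 4 of these have an adjusted p below 0.05.

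The libraries held 50440283 to 55123551 counts in WT and 67009967 to 99294510 in Abcc4-/-, and 3 counts corresponded to between 0.0304 and 0.0591 CPM (counts divided by the TMM-scaled library size). Abcc4 itself lay between 71.8 and 75.7 CPM in WT and between 60.1 and 62.3 CPM in Abcc4-/- (82.5% of WT, edgeR adjusted p = 0.0026), which does not check the genotype because the deleted segment is not given. All 15 megakaryocyte markers were detected, with sums of 563 to 602 CPM in the WT libraries and 437 to 540 CPM in those of Abcc4-/-. Nbeal2 and Itga2b, with means of 267 and 127 CPM over all libraries, gave most of these sums. Others were far lower, down to Gp6 with a mean of 0.184 CPM on 6 to 18 counts a library. The 16 neutrophil markers, led by S100a9 and S100a8, summed to between 24192 and 31292 CPM in WT and between 42586 and 45084 CPM in Abcc4-/-. Megakaryocyte genes were thus present beside a much larger signal from granulocyte genes, and all values are of whole samples.

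Adcy7, the cyclase known as prominent in blood cells and as responsive to G-beta-gamma, was the main adenylyl cyclase transcript in every library. Adcy7 (ENSMUSG00000031659.13) lies on chromosome 8, positions 88272403 to 88329962 on the plus strand of GRCm38. It had 220.6, 208.5 and 220.65 CPM in the WT libraries and at 203.7, 212.5 and 219.1 CPM in the Abcc4-/- libraries. The groups overlapped, and the log2 fold change was -0.03 with an SE of 0.05 (edgeR, adjusted p = 0.720). Per transcript length, in the deposited TPM, it made up 82.7% to 84.9% of the summed level of all 10 adenylyl cyclase genes in WT and 85.3% to 86.0% in Abcc4-/-.

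Adcy6, a cyclase that calcium and the inhibitory G proteins are known to restrain, had the smallest p among the 10 genes and fell in Abcc4-/-. Adcy6 (ENSMUSG00000022994.9, chromosome 15, positions 98589973 to 98610076, minus strand) had 16.4, 19.1 and 19.4 CPM in WT and 11.4, 12.8 and 12.95 CPM in Abcc4-/-. Every Abcc4-/- library was below every WT library. The means were 18.3 ± 1.63 and 12.4 ± 0.831 CPM (SD, n = 3), a 1.48-fold decrease (log2 fold change -0.56, SE 0.08; edgeR, adjusted p = 0.000803). The call held under all 18 alternatives, with log2 fold changes between -0.71 and -0.51. Its share of adenylyl cyclase TPM was 8.07% to 9.48% in WT and 5.90% to 6.24% in Abcc4-/-. The ratio of Adcy7 to Adcy6 in TPM was 8.73 to 10.52 in WT and 13.7 to 14.5 in Abcc4-/-. In TPM the means of Adcy6 differed 1.65-fold, more than in CPM. Its counts per TPM, which follow the assigned transcript length, were 97.8% to 102.7% of the WT mean in WT and 105.3% to 106.3% in Abcc4-/-. The share and the ratio carry this shift in length too. Counts per TPM were scaled by each library's median. They thus leave out a lower TPM of genes in general in Abcc4-/- (median log2 fold change -0.06 in limma on log2(TPM + 1)). The 1.65-fold difference includes both shifts.

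The other 3 adenylyl cyclases did not pass. Adcy3 (ENSMUSG00000020654.15, chromosome 12, positions 4133103 to 4213525, plus strand), known from the cilia of olfactory neurons, had 7.24, 7.06 and 7.29 CPM in WT and 7.74, 8.59 and 7.86 CPM in Abcc4-/-. Its groups did not overlap, with the higher values in Abcc4-/-, and the difference did not pass (log2 fold change 0.17, SE 0.08; edgeR, adjusted p = 0.191). Cenpo, on the opposite strand of the same locus, had 1360 to 2716 counts a library. Adcy9 (ENSMUSG00000005580.11, chromosome 16, positions 4287529 to 4420498, minus strand), the form that forskolin activates poorly, had 5.46, 5.93 and 6.45 CPM in WT and 5.24, 5.81 and 5.71 CPM in Abcc4-/-. These groups overlapped (log2 fold change -0.09, SE 0.10; edgeR, adjusted p = 0.587).

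Adcy4, another cyclase that G-beta-gamma is known to stimulate, was the lowest of the members and rested on 21 to 32 counts a library. Adcy4 (ENSMUSG00000022220.14, chromosome 14, positions 55769057 to 55784095, minus strand) lies 62.7 Mb from Abcc4 on the same chromosome. It had 0.582, 0.532 and 0.515 CPM in WT and 0.332, 0.213 and 0.384 CPM in Abcc4-/-. All Abcc4-/- values were below all WT values, but the estimate was imprecise (log2 fold change -0.83, SE 0.28; edgeR, adjusted p = 0.0645). It was called in 1 of the 16 alternatives that tested it, counts thinned to the smallest library (adjusted p = 0.0237). Its TPM is uncertain because the counts per TPM, which follow the transcript length that RSEM assigned, varied from 57.0% to 123% of the WT mean between libraries. For the other 9 members the same measure lay between 91.5% (Adcy3) and 109% (Gucy1a1) in the 6 libraries, and for Gnaz and Gucy1b1 it lay between 92.0% and 107% and between 95.95% and 109%.

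The other 5 adenylyl cyclase genes were near or under the limit of detection. Adcy5, a calcium-inhibited cyclase known from heart and striatum, was the 1 of them that was tested and averaged 0.226 ± 0.0472 CPM in the WT libraries and 0.255 ± 0.0118 CPM in the Abcc4-/- libraries (SD, n = 3), which did not pass (log2 fold change 0.18, SE 0.31; edgeR, adjusted p = 0.739). Adcy10, the bicarbonate-sensitive soluble cyclase, had the highest TPM among the 5 and a total of 48 counts over the 6 libraries. After Adcy7 and Adcy6, Adcy3 took the third share of the family's TPM, 3.65% to 4.195% in WT and 4.71% to 5.13% in Abcc4-/-. These shares did not overlap between the genotypes, but the TPM of Adcy3 itself did (2.41 to 2.96 in WT, 2.77 to 3.05 in Abcc4-/-). The family's summed TPM, by which the share is divided, averaged 66.6 in WT and 59.4 in Abcc4-/-. Its libraries overlapped, with 63.2 to 70.6 in WT and 55.4 to 63.3 in Abcc4-/-. The median log2 fold change of all genes was -0.06 in limma on log2(TPM + 1), against 0.00090 on counts.

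**Figure D2:**
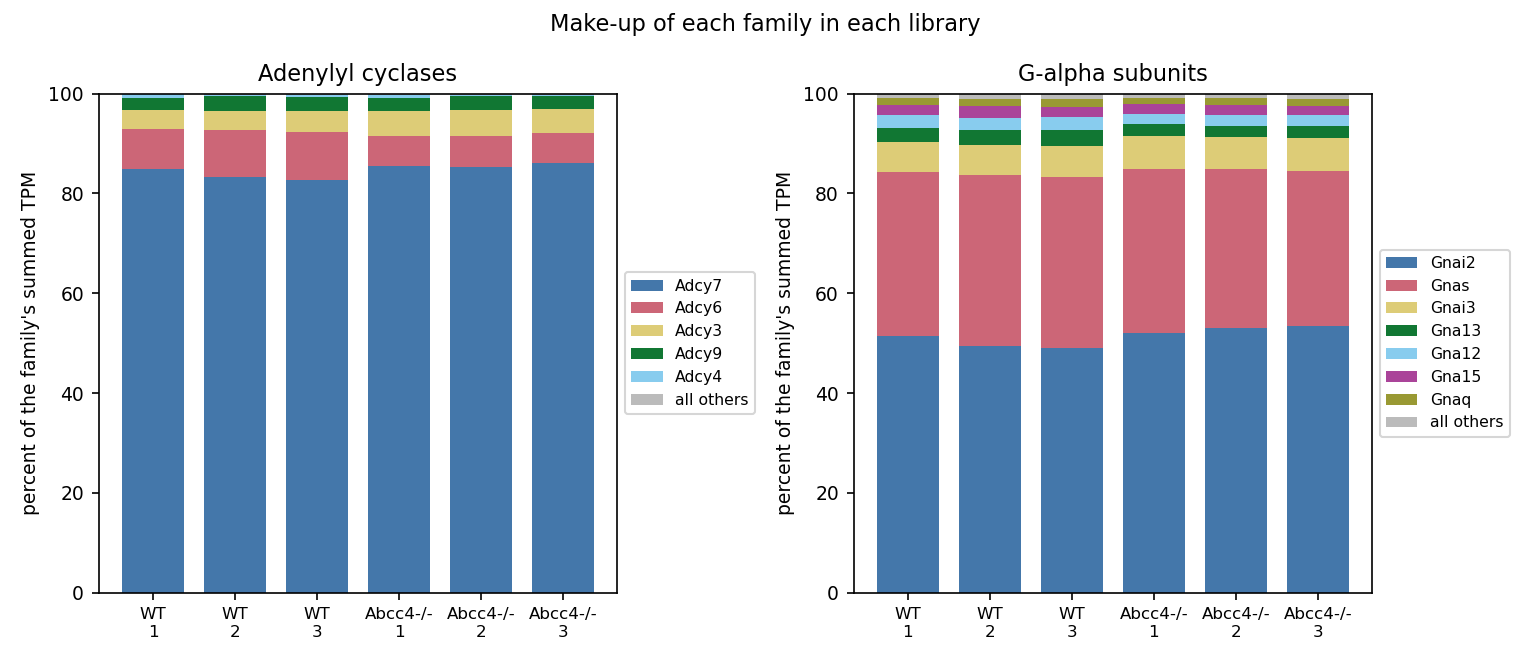
Percent of summed TPM (vertical axis, 0 to 100) that each adenylyl cyclase gene (left, 10 genes) and each G-alpha gene (right, 16 genes) took in the 6 libraries, with genes of small share pooled as all others. Adcy7 took at least 82.7% of the adenylyl cyclase TPM in each library, and the Adcy6 band is narrower in the 3 Abcc4-/- libraries.

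Gnai2 and Gnas together made up most of the G-alpha TPM. Gnai2 (ENSMUSG00000032562.13, chromosome 9, positions 107614125 to 107635367, minus strand), the inhibitory subunit that predominates in platelets and leukocytes, had 1169, 1081 and 1043 CPM in WT and 1182, 1204 and 1176 CPM in Abcc4-/-. Each Abcc4-/- library was above each WT library, by a margin that did not pass (log2 fold change 0.11, SE 0.06; edgeR, adjusted p = 0.224). Its share of the summed TPM of 16 G-alpha genes was 49.96 ± 1.23% in WT and 52.8 ± 0.691% in Abcc4-/- (SD, n = 3).

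Gnas (ENSMUSG00000027523.20, chromosome 2, positions 174284320 to 174346744, plus strand), an imprinted gene with several alternative starts, had 502, 500 and 489 CPM in WT. In Abcc4-/- it had 489, 483 and 461 CPM. The groups touched at 489 CPM and the difference did not pass (log2 fold change -0.06, SE 0.05; edgeR, adjusted p = 0.498). The gene value pools all starts, so G-alpha-s cannot be separated from the other products of the locus. The antisense gene Nespas had 3 to 23 counts a library, against at least 25362 for Gnas. The same-strand gene Gm19721, which overlaps Gnai2, had 37 to 141 counts. The ratio of Gnas to Gnai2 in TPM was 0.640 to 0.696 in WT and 0.585 to 0.633 in Abcc4-/-, so the WT and Abcc4-/- libraries did not overlap in this ratio.

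Gnaz, the pertussis toxin-resistant member of the inhibitory family that is known in platelets and neurons, fell in Abcc4-/-. Gnaz (ENSMUSG00000040009.6, chromosome 10, positions 74967177 to 75016907, plus strand) had 1.56, 1.71 and 2.09 CPM in WT and 0.996, 1.12 and 1.21 CPM in Abcc4-/-. Every Abcc4-/- value lay below the lowest WT value. The fold was 1.61 (log2 fold change -0.69, SE 0.17; edgeR, adjusted p = 0.0180), on 66 to 114 counts a library. Its call was lost without WT replicate 3 (adjusted p = 0.0666), without Abcc4-/- replicate 1 (0.0689), without Abcc4-/- replicate 2 (0.0620), and in limma on log2(TPM + 1) (0.0523) and log2(TPM + 0.1) (0.0530). In TPM, Gnai2 exceeded Gnaz by 811-fold to 1369-fold in WT and by 1809-fold to 2071-fold in Abcc4-/-. Rsph14, which overlaps Gnaz on the opposite strand, had 0 to 3 counts a library.

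Among 13 further G-alpha genes, 10 were tested, 1 was called higher and 1 lower, with a list median of -0.15. The share called was 20%, beside 17.3% over all genes tested. Gna11, which activates phospholipase C, rose from 21.2 ± 0.927 to 25.0 ± 0.672 CPM (log2 fold change 0.24, edgeR, adjusted p = 0.0140). Gna12 fell from 102.7 ± 4.75 to 91.0 ± 3.31 CPM (-0.17, edgeR, adjusted p = 0.0421). Gnai3, the inhibitory subunit with the highest TPM among these 13, did not pass (238.8 ± 4.80 and 258.2 ± 1.54 CPM, edgeR, adjusted p = 0.129). Gna11 lost its call without WT replicate 1 or Abcc4-/- replicate 2 and on every TPM scale (adjusted p = 0.0589 to 0.425), and Gna12 lost it on leaving out any library other than WT replicate 3 (0.0655 to 0.162).

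Both subunits of soluble guanylyl cyclase fell together. Gucy1a1 (ENSMUSG00000033910.13, positions 82092427 to 82145789) and Gucy1b1 (ENSMUSG00000028005.13, positions 82032006 to 82074689) lie in tandem on the minus strand of chromosome 3, with 17737 bases between them. Gucy1a1, the alpha subunit, had 3.04, 3.41 and 4.19 CPM in WT and 1.99, 2.32 and 2.45 CPM in Abcc4-/-. Gucy1b1, the heme-binding beta subunit, had 1.31, 1.56 and 1.67 CPM in WT and 0.739, 0.760 and 1.04 CPM in Abcc4-/-. For each gene the WT and Abcc4-/- libraries did not overlap.

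Gucy1a1 fell 1.57-fold (log2 fold change -0.65, SE 0.15; edgeR, adjusted p = 0.0121) and Gucy1b1 1.78-fold (-0.84, SE 0.20; edgeR, adjusted p = 0.0131). The counts behind them were 132 to 229 and 49 to 91 a library. Without Abcc4-/- replicate 1 neither gene was called (adjusted p = 0.0555 and 0.0565), and without Abcc4-/- replicate 2 Gucy1b1 was not (0.0617). In TPM the alpha subunit exceeded the beta subunit by 1.63 to 1.66 times in WT and by 1.47 to 2.16 times in Abcc4-/-. The Abcc4-/- range enclosed that of WT, so no shift in the subunit ratio was seen beyond the spread. The second alpha subunit gene, Gucy1a2, had 2 counts in all 6 libraries together, and Gucy1b2 had 0, which allows up to 0.0304 to 0.0591 CPM a library by counting error alone. The choice of these genes followed a look at their values.

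The upstream sequences of this pair are shown because the genes are neighbours and fell together. They are the 250 bases before a RefSeq start on the minus strand of GRCm38.p6, printed 5′ to 3′, and capitals mark matches to the motifs searched on both strands. The motifs were the cAMP response element TGACGTCA and its part TGACG, the GC box GGGCGG, the CCAAT box, the GATA motif AGATAA and the ETS motif AGGAAG.
Gucy1a1, chr3:82145651-82145900: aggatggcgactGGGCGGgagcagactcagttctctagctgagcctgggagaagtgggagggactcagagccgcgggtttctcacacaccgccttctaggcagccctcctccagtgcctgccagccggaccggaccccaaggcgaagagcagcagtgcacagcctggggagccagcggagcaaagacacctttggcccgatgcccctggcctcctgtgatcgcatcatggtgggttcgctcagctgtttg
Gucy1a1, chr3:82145074-82145323: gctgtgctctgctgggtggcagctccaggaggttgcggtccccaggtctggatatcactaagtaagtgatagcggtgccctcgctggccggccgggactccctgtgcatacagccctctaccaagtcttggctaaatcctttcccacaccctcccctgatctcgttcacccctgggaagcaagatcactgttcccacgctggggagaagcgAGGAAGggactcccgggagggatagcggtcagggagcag
Gucy1b1, chr3:82074712-82074961: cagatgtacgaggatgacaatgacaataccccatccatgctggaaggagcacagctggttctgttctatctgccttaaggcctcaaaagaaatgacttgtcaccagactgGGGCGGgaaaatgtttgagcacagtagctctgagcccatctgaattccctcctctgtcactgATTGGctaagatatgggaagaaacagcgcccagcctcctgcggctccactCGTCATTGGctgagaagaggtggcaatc

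The first Gucy1a1 window and the Gucy1b1 window each hold 1 GC box, which 32.7% of all 32851 RefSeq windows of this length hold. The Gucy1b1 window also holds 2 CCAAT boxes (33.8% of windows hold any), 1 of which overlaps its TGACG match (17.8%), and the second Gucy1a1 window holds 1 ETS motif (29.5%). RefSeq entries matched 7 of the 10 members, with 14 windows in all. None of the 14 held the full TGACGTCA (1.55% of all windows), and AGATAA occurred only in that of Adcy4 (9.99% of all windows). These are matches of letters in the windows searched. By the gene positions given above, the second Gucy1a1 window lies inside the gene and the first reaches into it.

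Npr2, the membrane guanylyl cyclase that binds C-type natriuretic peptide, was the called gene among 9 further guanylyl cyclases, of which 4 were tested (25% called). It fell from 4.85 ± 0.893 to 3.09 ± 0.602 CPM (SD, n = 3; log2 fold change -0.64, edgeR, adjusted p = 0.0284), and had the highest TPM of these 9. Its call was lost without WT replicate 2 or 3 or Abcc4-/- replicate 1 or 2, and on all 3 TPM scales (adjusted p = 0.0535 to 0.0948).

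Set side by side per length, the members spanned a wide range and kept nearly the same order in every library. Mean TPM over the 6 libraries was 870.8 for Gnai2, 557.5 for Gnas, 53.3 for Adcy7, 4.80 for Adcy6, 2.77 for Adcy3, 1.75 for Adcy9 and 0.940 for Gucy1a1. It was 0.627 for Gnaz, 0.557 for Gucy1b1 and 0.238 for Adcy4. From Gnai2 down to Gucy1a1 each gene's lowest library was above the highest of the next gene, whereas Gucy1a1, Gnaz, Gucy1b1 and Adcy4 overlapped their neighbours in this order. Ranks within a library differed only for Gnaz and Gucy1b1, which exchanged places 8 and 9. The groups did not overlap in CPM for 7 of the 10 members, against 36.8% of all genes tested.

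**Figure D3:**
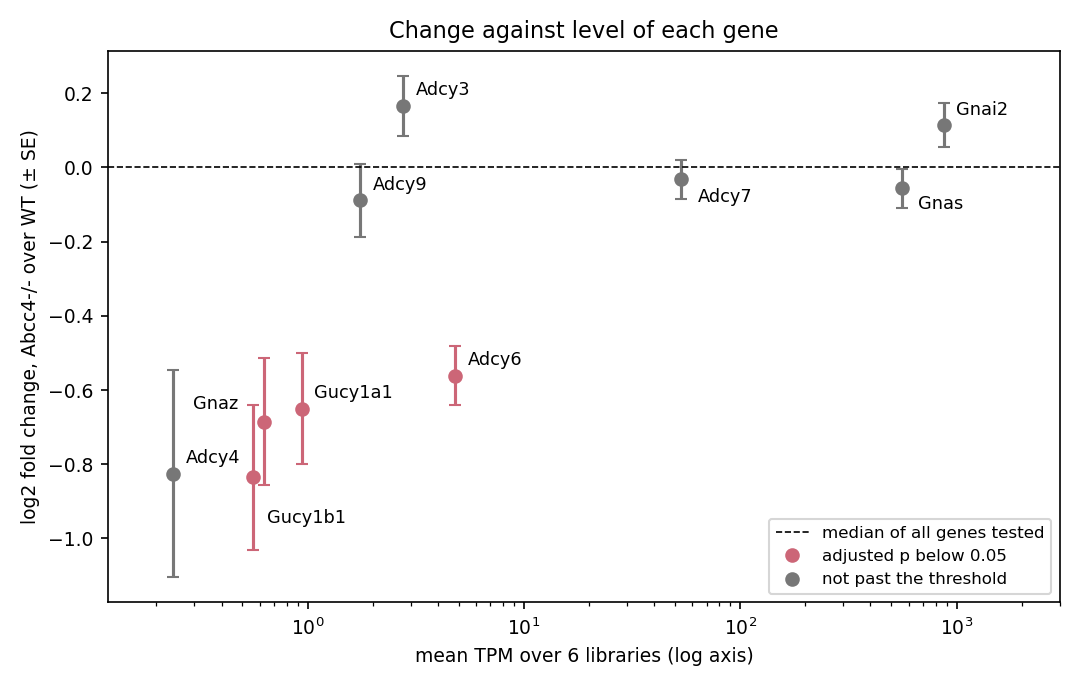
Log2 fold change of Abcc4-/- over WT with its SE (vertical axis) against mean TPM over 6 libraries (log axis) for the 10 genes. The 4 genes past an adjusted p of 0.05 (red) all lie below 5 TPM, and the 3 genes above 50 TPM lie between -0.06 and 0.11.

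Most megakaryocyte markers were also lower in Abcc4-/-. Of the 15 fixed markers, 9 were called lower and 1, Ppbp, higher in Abcc4-/-, with a median log2 fold change of -0.52. None was at 0 counts. Itga2b, which encodes CD41, fell from 158.0 ± 17.3 to 96.1 ± 13.8 CPM (edgeR, adjusted p = 0.0106; 0.0667 without WT replicate 3 and 0.0504 with no filter on low counts). Nbeal2, a gene of alpha-granule formation with the highest CPM in the list, did not pass (edgeR, adjusted p = 0.566). In whole samples fewer cells of a type and less RNA per cell cannot be told apart.

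As a description added after the data were seen, each member was set against the mean log2 CPM of these 15 markers, which was 2.87 ± 0.0700 in WT and 2.40 ± 0.114 in Abcc4-/- (SD, n = 3). On this scale the difference between the genotypes was -0.09 for Adcy6, whose groups then overlapped. It was -0.21 for Gnaz, -0.17 for Gucy1a1 and -0.38 for Gucy1b1, with groups that still did not overlap. Of the members only Adcy6 had overlapping groups on this scale. The share of all genes that do not overlap on it was not computed. For Gucy1a1 the margin was narrow, with the nearest libraries at -1.208 in Abcc4-/- and -1.204 in WT. For Gnaz they were at -2.22 in Abcc4-/- and -2.17 in WT. The mean gives each of the 15 markers equal weight, among them Gp6 on 6 to 18 counts a library. Margins of this size can turn on a single low marker, and other marker sets were not tried. The overlap of Adcy6 therefore does not set it apart from Gnaz and Gucy1a1. Gnai2, Gnas and Adcy7 stood 0.59, 0.41 and 0.44 higher in Abcc4-/- on the same scale. Adcy3 and Adcy9 stood 0.63 and 0.38 higher, and Adcy4 stood 0.38 lower. The marker mean itself differed by -0.47, so a gene unchanged in CPM stands about that much higher by construction. The part of the marker change in the members' values was not tested.

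**Figure D4:**
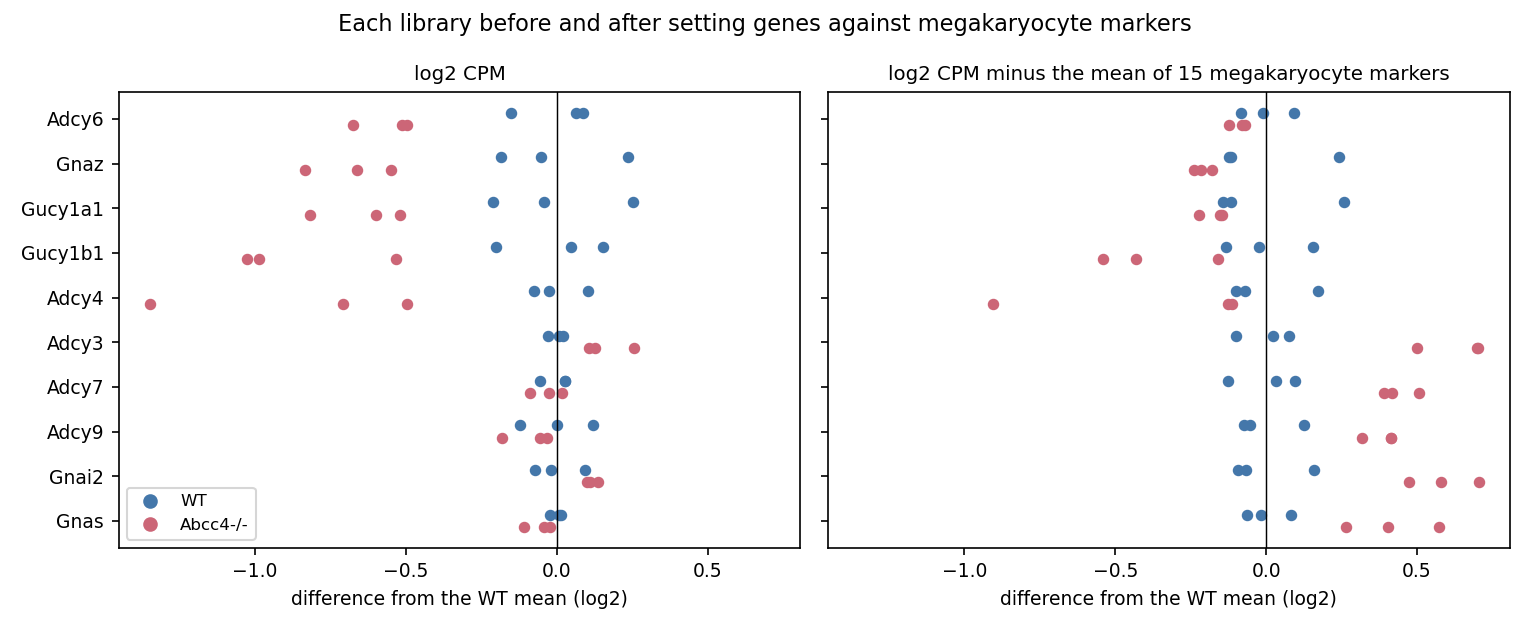
Difference of each library from the WT mean on a log2 scale (horizontal axis) for the 10 genes, from CPM (left) and after subtracting the mean log2 CPM of 15 megakaryocyte markers (right), with WT in blue and Abcc4-/- in red. For Adcy6 the groups are apart on the left and overlap on the right, whereas Gnai2, Gnas and Adcy7 move apart on the right. The marker mean itself is 0.47 lower in Abcc4-/-, so genes with little change in CPM move apart on the right by construction.

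Markers of other cells moved as well, and their part in these results was not tested. Of 16 neutrophil markers 11 were called higher and 1 lower, of 10 B lineage markers 7 higher, and of 10 T and NK markers 8 higher, with 0 called lower in the last pair of lists. Cd79a, a B lineage marker, was not called with the replicate block (edgeR, adjusted p = 0.105) or without WT replicate 3 (0.0611). Of 8 mast cell, basophil and eosinophil markers 3 were called lower. All 8 together summed to between 2834 and 3172 CPM in WT and between 2146 and 2681 CPM in Abcc4-/-. The sums that follow are likewise of whole lists. Of 9 endothelial and stromal markers tested 2 were called lower (22.2%, 53.4 to 59.5 CPM summed in WT, 45.9 to 50.2 CPM in Abcc4-/-). Monocyte and macrophage markers had 2 of 12 called lower (16.7%, sums of 10676 to 12422 and 10747 to 12315 CPM). Erythroid markers had 2 of 9 called higher (22.2%, 705 to 768 and 552 to 798 CPM). Over all genes tested 17.3% were called. The B lineage markers summed to 505 to 725 CPM in WT and 984 to 1080 CPM in Abcc4-/-, the T and NK markers to 104 to 130 and 128 to 145 CPM. No tested or untested marker of any list was at 0 counts in all libraries.

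The genes around the cyclases were taken as 10 lists. Shares called are to be read beside the 17.3% called over all genes tested. Of 14 Gs-coupled receptors tested, which raise cAMP, 5 were called higher and 3 lower (57.1%, median log2 fold change 0.03). Ptger4, for a stimulatory prostaglandin E2 receptor, fell 1.56-fold and Gpr3, a receptor active without ligand, fell 7.09-fold on 52 counts in all (edgeR, adjusted p = 2.6e-05 and 0.0026). The prostacyclin receptor gene Ptgir and Calcrl, the receptor of calcitonin gene-related peptide and adrenomedullin, rose 1.35-fold and 1.22-fold (edgeR, adjusted p = 0.00103 and 0.0041). Calcrl was not called on the TPM scales (0.185 to 0.193).

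Of 13 Gi-coupled receptors tested, which lower cAMP, 5 were called higher and 3 lower (61.5%, median 0.25). The formyl peptide receptor genes Fpr1 and Fpr2 of neutrophils rose 1.96-fold and 1.94-fold (edgeR, adjusted p = 5.5e-05 and 0.00032), and the ADP receptor gene P2ry13 rose 1.66-fold (0.00398). Ptger3, the inhibitory prostaglandin E2 receptor gene, fell 1.64-fold (edgeR, adjusted p = 0.00138). Calls of these 4 held in all 18 alternatives.

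Of 11 G-beta and G-gamma genes tested, 2 were called lower and 0 higher (18.2%, near the share over all genes, median 0.03). Gnb4 fell 1.19-fold and Gng11 1.45-fold (edgeR, adjusted p = 0.0203 and 0.0317), and each lost its call when single libraries were left out. For Gnb4 these were WT replicates 1 and 3 and Abcc4-/- replicates 1 and 2 (0.0510 to 0.0740), and for Gng11 all but WT replicate 3 (0.0531 to 0.117). Of 7 chaperones and receptor-independent regulators of G-alpha tested, 28.6% were called, with a list median of -0.10. Ccdc88a fell 1.29-fold and Gpsm3 rose 1.19-fold (edgeR, adjusted p = 0.0128 and 0.02245). Neither was called without Abcc4-/- replicate 1 or 2, and Ccdc88a was not called on TPM scales (0.0522 to 0.0940 over both genes).

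Downstream, the effectors of cAMP and cGMP had 2 called higher and 3 lower of 14 tested (35.7%, median -0.03). Prkg1, the cGMP-dependent kinase that acts below soluble guanylyl cyclase, averaged 4.003 ± 0.555 CPM over the WT libraries and 2.24 ± 0.0645 CPM over the Abcc4-/- libraries (SD, n = 3). It fell 1.79-fold (log2 fold change -0.84, SE 0.13; edgeR, adjusted p = 0.00158) and was called in all 17 alternatives that tested it. Vasp, an actin regulator that both kinases phosphorylate, rose 1.31-fold (edgeR, adjusted p = 0.00149). Genes of protein kinase A inhibitors moved in opposite directions: Pkig rose 1.20-fold and Pkia fell 1.78-fold (edgeR, adjusted p = 0.0202 and 0.0297). Pkig lost its call in 7 of 18 alternatives and Pkia in 9 of 16, among them 4 and 5 of the 6 left-out libraries (adjusted p = 0.0503 to 0.380): for Pkig these were WT replicates 1 and 3 and Abcc4-/- replicates 1 and 2, for Pkia all but WT replicate 3.

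Phosphodiesterases, which break the nucleotides down, had 2 called higher and 4 lower of 17 tested (35.3%, median -0.14). Pde2a, which cGMP stimulates, rose 1.38-fold (164.9 ± 18.9 to 227.0 ± 8.53 CPM, edgeR, adjusted p = 0.0024). The cAMP-specific genes Pde4a and Pde4b fell 1.24-fold and 1.61-fold (edgeR, adjusted p = 0.003025 and 0.00902), and Pde10a fell 1.52-fold (0.0112; 0.0502 without Abcc4-/- replicate 1, and 0.0520 in limma on log2(TPM + 1) at a mean TPM of at least 1).

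On the nitric oxide side, 3 of 7 genes were tested (33.3% called) and Ddah2 was called higher (1.27-fold, edgeR, adjusted p = 0.03095). It lost the call in 8 of 18 alternatives (0.0535 to 0.174), among them those without WT replicate 1 or 3 or Abcc4-/- replicate 1 or 2. The synthase genes Nos1, Nos2 and Nos3, picked after their values were seen, had 33, 8 and 42 counts over the 6 libraries and were not tested. Over the 10 pathway lists together, 17 genes were called higher and 18 lower of 94 tested, and the median log2 fold change was -0.04. In limma on log2(TPM + 1) and on log2(TPM + 0.1) the split was 8 higher and 15 lower, and without Abcc4-/- replicate 1 it was 12 higher and 7 lower.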

How the data were processed

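The submitters' processing notes name STAR 2.7, RSEM 1.3.1 and the build mm10, without an annotation release. The values the authors deposited are RSEM expected counts per gene, which are not normalized, and TPM, which are scaled by transcript length within a sample. The library kit keeps strand, per the labels' protocols, and the tables' names contain the word stranded. Spike-in entries (92) were dropped.

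Expected counts as deposited were rounded, scaled by TMM and filtered by default settings in edgeR 4.0.16 (R 4.3.3). Genotypes were compared by its robust quasi-likelihood test with Benjamini-Hochberg adjustment over 16493 genes. The SE of a log2 fold change was derived from the F statistic. Positions are from GENCODE M21 (GRCm38), which matched 55394 identifiers when versions were ignored, and promoters from RefSeq (GRCm38.p6).

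The members and lists were chosen with earlier results of these data known. The naming rule took every member, Abcc4, up to 4 called genes of each pathway list with the smallest adjusted p (with 0 called, the smallest p), the other cyclases and G-alpha subunit with the highest TPM, and the 2 markers of each list with the highest CPM. The latter were Nbeal2 and Itga2b, S100a9 and S100a8, Lyz2 and Ly6c2, Hbb-bs and Hba-a2, Cd79a and Cd79b, Nkg7 and Cd4, Tie1 and Cxcl12, Prss34 and Mcpt8. Alternatives used other scalings, DESeq2 1.42.0, limma-voom (limma 3.58.1), other filters, thinned counts, limma on log2(TPM + 1) and log2(TPM + 0.1), where changes of low genes come out too small, a replicate block, and each library left out. The gene test was checked on simulated counts.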

Additional observations from a re-analysis of the deposited data

How the results depend on the processing

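Directions of the 10 members held in every alternative that tested them, and calls of named genes that ended are given with the genes. Calls were gained by Adcy4 (thinned counts), Prss34 (replicate block, without Abcc4-/- replicate 2), Nkg7 (without WT replicate 3), and Hbb-bs and Hba-a2 (without Abcc4-/- replicate 3). The number of members called ranged from 1 to 4 over the 6 left-out libraries, of all genes from 1760 to 2415 (2852 in full) and of pathway genes from 19 to 30 (35 in full). In limma on log2(TPM + 1) and log2(TPM + 0.1) 23 pathway genes were called each. With a mean TPM of at least 1 as the filter, 1 member, 19 pathway genes and 1862 genes in all were called; that filter removes Adcy4, Gnaz, Gucy1a1 and Gucy1b1. Of all calls 49.8% were higher on counts and 28.4% on log2(TPM + 1), where the median of all genes was -0.06. With the replicate block, 4 members, 35 pathway genes and 3157 genes were called. Same-numbered samples did not deviate together (correlations of -0.05, -0.03 and -0.01 across genes), and samples of unlike number gave -0.06 to 0.08. The labels do not say whether the numbers pair the samples, and with 3 samples a group these correlations cannot settle it. Among genes that were not called, signs turned for Cd4 (0.02 in full; -0.0069 in limma-voom, -0.0114 on log2(TPM + 1) with or without the filter, -0.0140 on log2(TPM + 0.1), -0.1229 to 0.0923 over left-out libraries, below 0 without WT replicate 1 or Abcc4-/- replicate 1), Lyz2 (0.05; -0.0243 on each TPM scale) and Cxcl12 (-0.17; -0.6563 to 0.0395 over left-out libraries, above 0 without WT replicate 2 or Abcc4-/- replicate 1 or 2). Adcy5 (0.18 in full) came to 0.00 on log2(TPM + 1). Apart from the filter, the cause of these shifts was not tested. Under 120 counts a library, as for Gnaz, Gucy1b1 and Adcy4, changes of this size sit near the threshold.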
